A study of Saccharomyces cerevisiae with 3 samples.

Results

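The genes described here are 10 Saccharomyces cerevisiae genes for antioxidant enzymes and thioredoxins, chosen by name from the 6207 open reading frames (ORFs) of a yeast DNA microarray. They are the peroxiredoxin genes TSA1 (YML028W) and AHP1 (YLR109W), the superoxide dismutase genes SOD1 (YJR104C) and SOD2 (YHR008C), the catalase genes CTT1 (YGR088W) and CTA1 (YDR256C), the thioredoxin genes TRX1 (YLR043C) and TRX2 (YGR209C), the thioredoxin reductase gene TRR1 (YDR353W) and the glutathione peroxidase gene GPX2 (YBR244W). All 10 were found in the RefSeq gene table by locus tag. Each array compared RNA of the strain MID2extWSC1cyt, in the BY4741 background, after 2 h with caspofungin at 15 ng/ml, with RNA of the untreated part of the same culture, both grown in YEPD at 24 °C. Caspofungin is a drug that blocks synthesis of β-1,3-glucan in the fungal wall. Treated and untreated cells both carried the chimera that gives the strain its name, which by that name joins the outer part of the wall sensor Mid2 to the inner part of the sensor Wsc1. The promoter of the chimera and the number of clones used are not given in the sources. The 3 arrays analysed are numbered 1, 2 and 4 in their titles. Caspofungin RNA was labelled with Cy3 on array 1 and with Cy5 on arrays 2 and 4. The design text gives 2 cultures, each hybridised in both dye orientations, so arrays 2 and 4 are of different cultures and the culture of array 1 is one of those, unnamed in the labels. Of genes specific to mating type, 0 of 4 alpha-specific genes had a value on any array. Of 6 a-specific genes, 4 had one on array 1, BY4741 being a strain of mating type a. Over all ORFs, 37.6% had no value on any array and 60.4% had one on array 1. These counts therefore say little of mating type.

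Yeast cells remove hydrogen peroxide and other peroxides mainly with peroxiredoxins, which are recharged by thioredoxin, and with catalases. Thioredoxin is itself recharged by thioredoxin reductase with electrons from NADPH. Superoxide dismutases turn superoxide into hydrogen peroxide, Sod1 mostly in the cytosol and Sod2 in the mitochondrial matrix. The transcription factors Yap1 and Skn7 induce many of these genes under oxidative stress, and Msn2 and Msn4 induce CTT1 as part of the general stress response.

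The deposited value of a gene on an array is a log2 ratio between the 2 channels. No source used here gives its direction, so signs are those of the deposited scale. If the ratio is caspofungin over untreated, a negative value is a lower level with caspofungin. Array 1, of the opposite dye orientation, is taken to run in the same direction as the others, because over the ORFs they share it correlated positively with arrays 2 and 4 (Pearson's r 0.436 and 0.394, over 2818 and 745 ORFs, which are not independent replicates). Spearman's rho was 0.297 with array 2 and 0.457 with array 4. A dye effect common to all arrays would give the same sign of correlation. So would, for arrays 1 and 2, the trend with gene length that they share, described below. The ratio compares shares of total RNA, so a difference in the number of cells that express a gene and one in the RNA per cell cannot be told apart.

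The arrays differed in how much they measured. Array 1 had values for 3748 ORFs, array 2 for 2833 and array 4 for 855, which is 60.4%, 45.6% and 13.8% of the ORFs. Of the 10 antioxidant genes, 6 had a value on each array, and 5 had a value on all 3 arrays, namely TSA1, AHP1, SOD1, SOD2 and TRX2. GPX2 was measured on arrays 1 and 2, and TRR1 on array 4. CTT1, which encodes the cytosolic catalase, CTA1, which encodes the catalase of peroxisomes and mitochondria, and TRX1, for the other cytosolic thioredoxin, had no value on any array, as had 37.6% of all ORFs. Nothing can be said of these 3 genes from these arrays. Over all ORFs, arrays 1, 2 and 4 had medians of −0.24, −0.14 and −0.93 and SDs of 0.809, 0.436 and 1.55, so the same deposited value ranks differently on each array.

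The cytosolic peroxiredoxin genes TSA1 and AHP1 had much the same values as each other on every array. TSA1, for the main peroxiredoxin of the cytosol, had −0.24, −0.20 and 0.58 on arrays 1, 2 and 4. AHP1, for a peroxiredoxin that prefers organic peroxides, had −0.22, −0.15 and 0.44. Both were weakly negative on arrays 1 and 2 and positive on array 4. TSA1 minus AHP1 was −0.017, −0.051 and 0.14 on the 3 arrays, small against the SD of the ORFs on each array. On arrays 1 and 2 both genes lay near the middle of the array, at percentiles 49.9 and 41.6 for TSA1 and 50.9 and 48.3 for AHP1. On array 4 they lay high, at percentiles 89.8 and 87.4, and exceeded that array's median by 1.52 and 1.38 on the log2 scale. TSA1 has a close paralogue, TSA2, and no source used here says which of their transcripts a TSA1 spot binds.

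GPX2, which encodes a peroxidase of the glutathione peroxidase family, was lower on the deposited scale than both peroxiredoxin genes where all were measured. It had −1.16 on array 1 and −0.45 on array 2, at percentiles 10.4 and 13.1. Both values were negative and differed from the array's median by −0.92 and −0.32. In the fit of arrays 1 and 2 alone, over 2818 ORFs, GPX2 had a mean of −0.81 ± 0.29 (SE, 2 arrays; limma adjusted p = 0.311), and it was not called. Over the 2840 ORFs with a value on array 1 and at least 1 other array, its limma adjusted p = 0.464. Arrays 1 and 2 may be of the same culture. The SE of their fit draws in part on the spread of all ORFs (7.81 prior degrees of freedom), so it is not the spread of GPX2 alone.

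The superoxide dismutase genes had deposited values from −0.44 to 0.30. SOD1, for the copper-zinc enzyme, had −0.44, −0.073 and −0.12 on arrays 1, 2 and 4, all negative. SOD2, for the manganese enzyme of mitochondria, had −0.21, 0.14 and 0.30. SOD1 was below SOD2 on each of the 3 arrays, by −0.23, −0.21 and −0.41 (SOD1 minus SOD2), and no test of this difference was made. Relative to the array, SOD1 lay at percentiles 38.3, 58.2 and 78.6, and SOD2 at 51.8, 79.2 and 84.9. Both genes thus ranked higher on array 4, as the peroxiredoxin genes did, although SOD1 had a negative value there. SOD1 and SOD2 exceeded the median of array 4 by 0.82 and 1.23. Ranks on array 4 are among 855 ORFs, against 3748 and 2833 on arrays 1 and 2, so they are not against the same ORFs.

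In the thioredoxin system, TRX2 was the lowest on each array of the 5 genes with a value on all of them. TRX2, which encodes a cytosolic thioredoxin that recharges peroxiredoxins, had −1.03, −0.46 and −1.37 on arrays 1, 2 and 4. It was negative on each array and differed from the arrays' medians by −0.79, −0.32 and −0.43, at percentiles 13.6, 12.8 and 38.6. TRX2 minus TSA1 was −0.79, −0.26 and −1.95, so the thioredoxin gene was below the gene of the peroxiredoxin it recharges on every array. TRX1 and TRX2 encode closely related proteins, and no source used here says whether the TRX2 spot also binds TRX1 RNA. TRR1, for cytosolic thioredoxin reductase, had −1.16 on array 4 alone. That value differed from the array's median by −0.22, at percentile 43.4, so it lay near the middle of that array, and it has no replicate. Values of −1 or lower were found for 2 of the 6 antioxidant genes on array 1 (TRX2 and GPX2), 0 of 6 on array 2 and 2 of 6 on array 4 (TRX2 and TRR1), against 14.3%, 1.02% and 47.7% of all values on these arrays.

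**Figure D1:**
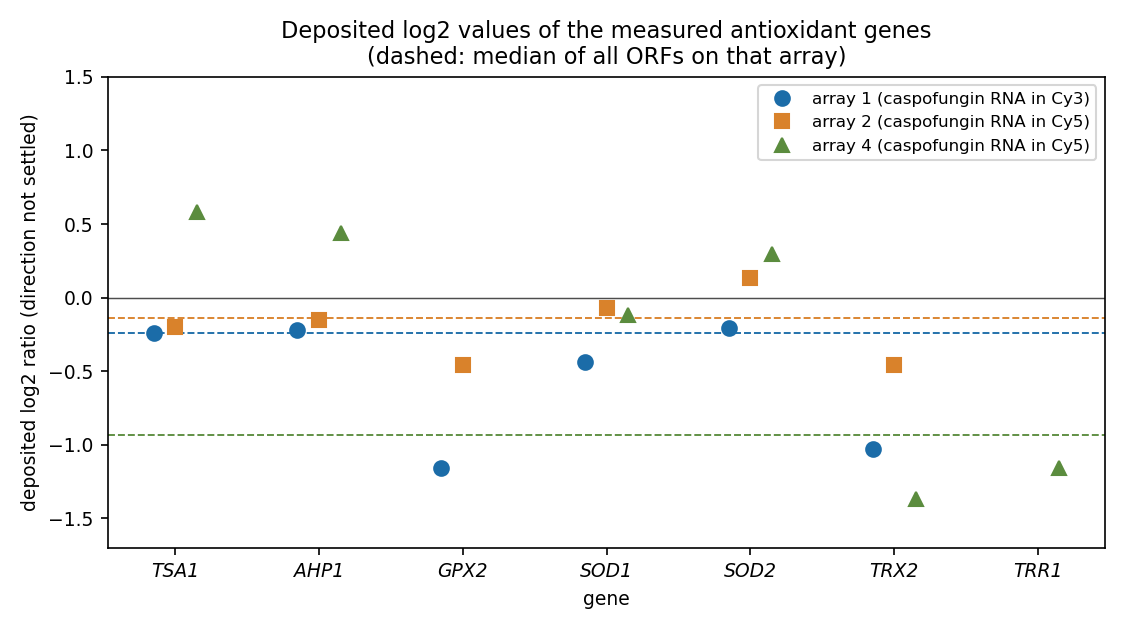
Deposited log2 ratio (vertical axis, no unit) of the 7 antioxidant genes with a value, by array (points), with the median of all ORFs of each array as a dashed line. TRX2 and GPX2 are negative on each array that measured them, while TSA1, AHP1 and SOD2 are positive on array 4, where the median is −0.93.

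None of the antioxidant genes was called in the test across genes. The test was limma with a term for caspofungin and a term for dye, over the 723 ORFs with a value on all arrays, with p-values adjusted by Benjamini-Hochberg and genes called under 0.05. It called 0 of the 5 antioxidant genes, against 0.277% of all ORFs tested, and 0 of the 5 had an unadjusted p under 0.05, against 3.18%. The fitted value of TRX2 was −0.97 ± 0.73 (SE, 3 arrays; limma adjusted p = 0.868). Over 14 alternative settings that p ranged from 0.145 to 0.998. The fitted values of the other genes were −0.27 for SOD1, −0.038 for AHP1, −0.024 for TSA1 and 0.0039 for SOD2, with the same SE and limma adjusted p of 0.971 or more. Without array 1 the value of SOD1 was −0.094, but both arrays left have caspofungin RNA in Cy5 and no dye term was fitted. Of the 5 fitted values 4 were negative and 1 was positive, where 26.6% of the ORFs tested had a positive one. The median of the 5 was −0.038, where all 723 ORFs had a median of −0.36. Only TRX2 and SOD1 were negative on all arrays, 2 of 5 genes, against 45.4% of the ORFs tested, and 0 of 5 were positive on all, against 7.61%. Fitted values of at least 2-fold with the same sign on all arrays were found for 0 of 5 genes, against 13.1% of the ORFs. At 1.5-fold there was 1, TRX2, and 30.2% of the ORFs were negative to that extent. Each of these shares for the antioxidant genes rests on 5 genes.

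The error of the test is wide. The fit has 1 residual degree of freedom per gene, the difference between arrays 2 and 4, and its prior SD was 1.19. The prior degrees of freedom were infinite, so the SE of 0.73 is pooled over genes and the same for every ORF. It does not measure the spread of any single gene between arrays. The fit counts 3 arrays from 2 cultures as independent, which makes the SE too small if cultures differ. If array 1 is turned the other way, the fitted value of TRX2 becomes 0.057, of SOD1 0.17, of AHP1 0.18, of TSA1 0.22 and of SOD2 0.21, because the caspofungin and dye terms then exchange places. All 5 genes are positive in that reading, against 222 of the 723 ORFs, and none is called. The median of the 723 ORFs is then −0.19. The dye term as fitted called 0 of 723 ORFs (4 at an unadjusted p under 0.05) and 0 of the 5 genes. With array 4 left out, which adds GPX2, limma called 0 of 6 antioxidant genes, against 0.887% of 2818 ORFs. There 2 of the 6, TRX2 and GPX2, had an unadjusted p under 0.05, as had 13.5% of the ORFs, and the adjusted p of TRX2 was 0.320. On arrays 1 and 2, 5 of the 6 genes were negative on both, all but SOD2, against 47.1% of the ORFs measured on both. With array 1 turned, 0 of the 6 were negative on both, against 19.5% of the ORFs. That 0 was fixed beforehand, because all 6 were negative on array 1 as deposited.

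**Figure D2:**
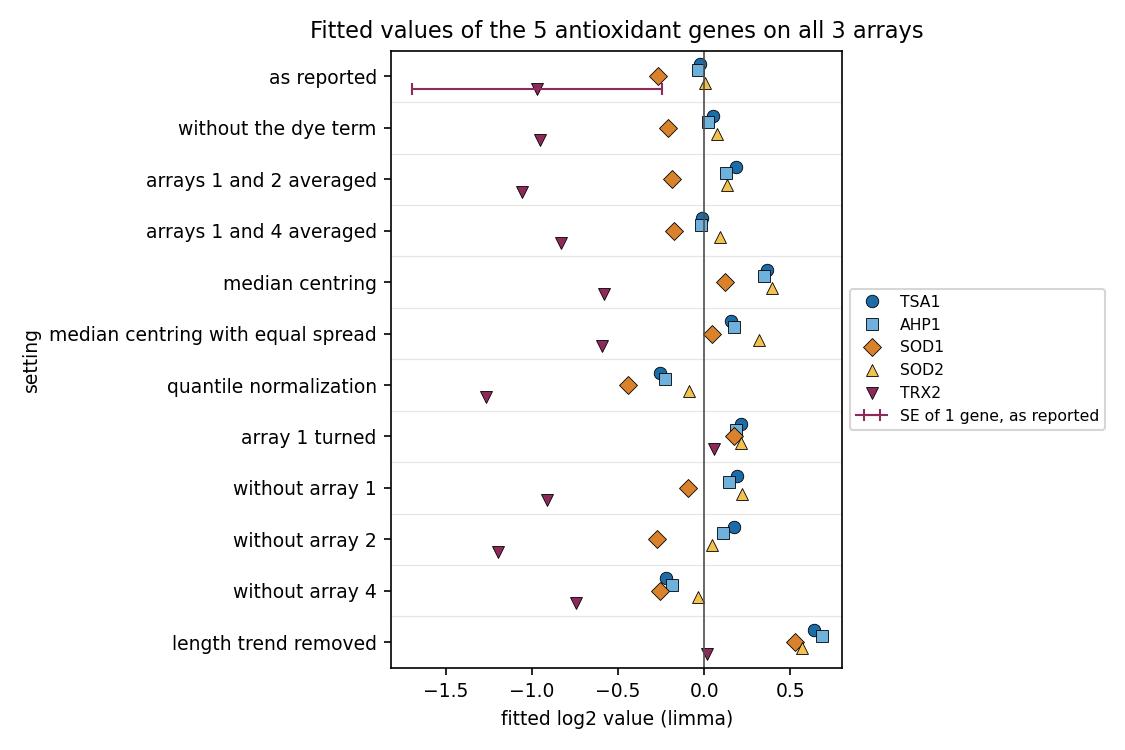
Fitted log2 value (horizontal axis, no unit) of the 5 antioxidant genes with a value on all arrays, as reported and under 11 other settings (rows), with the SE of TRX2 as reported drawn as a bar. TRX2 is the lowest of the 5 in every row and crosses 0 in 2 of them, array 1 turned (0.057) and length trend removed (0.015).

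Gene length moved with these values. The antioxidant genes are short, with a median length of 561 bp in the RefSeq table, against 1248 bp for all ORFs matched to it, and TRX2 has 315 bp. Lengths there are mostly coding lengths. Over all ORFs, shorter genes had lower values on arrays 1 and 2 (Spearman's rho between value and length 0.347 and 0.392, over 3598 and 2729 ORFs that share an array), while rho was 0.0474 over 810 ORFs on array 4, where the shortest and the longest genes both had lower medians than genes of middle length. The 90 other ORFs on array 1 within 20% of the length of TRX2 had a median of −1.06, next to −1.03 for TRX2 itself. On array 4 the 32 such ORFs had a median of −1.41, next to −1.37 for TRX2. On array 2 the 71 such ORFs had a median of −0.12, and TRX2, at −0.46, lay at percentile 16.9 among them. TRX2 was thus low for its length on array 2 and in the middle of its length class on arrays 1 and 4. GPX2, with 489 bp, lay at percentiles 21.5 and 22.3 among ORFs of its length on arrays 1 and 2.

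Against genes of their own length, the peroxiredoxin and dismutase genes ranked above the middle on each array. TSA1 lay at percentiles 78.6, 62.0 and 91.2 of its length class on arrays 1, 2 and 4, and AHP1 at 83.2, 67.3 and 93.2. SOD1 lay at percentiles 76.4, 78.8 and 82.9, and SOD2 at 75.5, 95.2 and 83.6. By this rank SOD1 was not below SOD2 on array 1, and they were close on array 4. TRR1, with 960 bp, lay at percentile 33.9 on array 4. With the length trend of each array removed, an alternative chosen after the values were seen, the fitted values were 0.64 for TSA1, 0.68 for AHP1, 0.52 for SOD1, 0.57 for SOD2 and 0.015 for TRX2. The median of the 5 was then 0.57, where that of all 681 ORFs was 0.11. Removing the trend also centres each array, and limma called 0 of the 5 genes (adjusted p of at least 0.803). After median centring alone, TSA1, AHP1, SOD1 and SOD2 had 0.36, 0.35, 0.12 and 0.39, and TRX2 had −0.58. The sign of TSA1, AHP1 and SOD1 thus turned with either step, that of TRX2 with the length trend alone, and SOD2 was positive in these 3 fits (as reported, centred and with the trend removed). The part of length in these values was not tested beyond this.

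**Figure D3:**
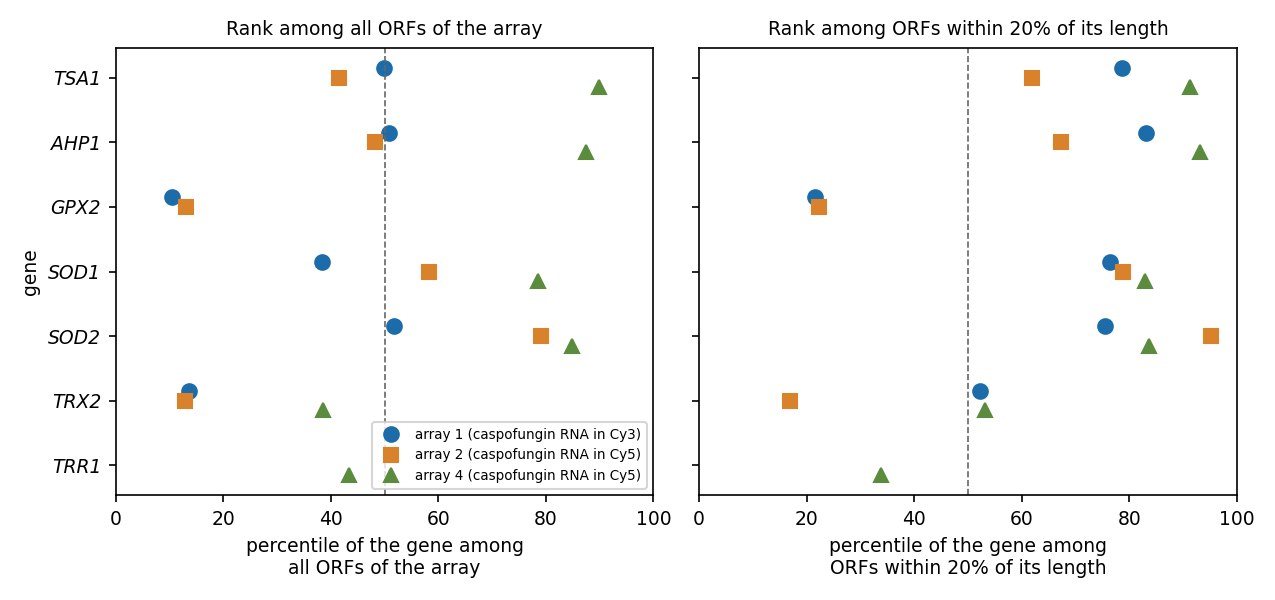
Percentile (horizontal axis, percent) of each measured antioxidant gene on each array (points), among all ORFs of the array on the left and among ORFs within 20% of its length on the right. TSA1, AHP1, SOD1 and SOD2 lie above percentile 60 in each case on the right, while GPX2 stays near percentile 22 and TRX2 spreads from 16.9 to 53.1.

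**Figure D4:**
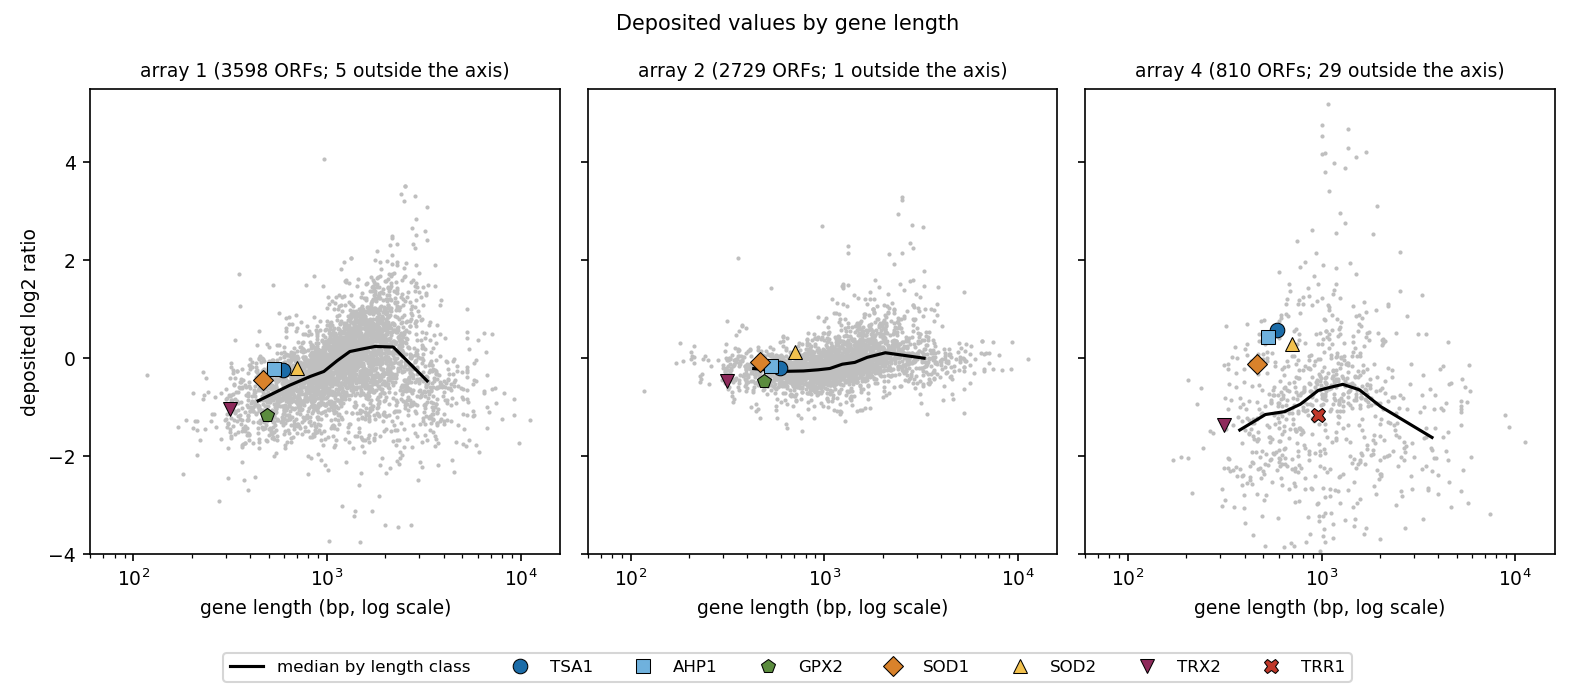
Deposited log2 ratio (vertical axis) against gene length in bp (horizontal axis, log scale) on arrays 1, 2 and 4, with all ORFs in grey, the median of 10 equal-sized classes of length as a line and the antioxidant genes as symbols. On array 4, TSA1, AHP1, SOD1 and SOD2 lie above the line, and TRX2 lies near the line on arrays 1 and 4.

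The high ranks of TSA1, AHP1, SOD1 and SOD2 on array 4 stood beside high values of other genes on that array. The 14 glycolysis genes measured there had a median of 3.84, against 0.33 on array 1 and 0.16 on array 2. On all arrays, 10 of 11 glycolysis genes had a positive fitted value and 1 a negative one, against 26.6% positive among the ORFs tested, with a median of 1.13. Without array 4, the fitted values of the peroxiredoxin and dismutase genes were −0.22 for TSA1, −0.19 for AHP1, −0.26 for SOD1 and −0.036 for SOD2. The part of array 4 as a whole in the ranks of these 4 genes was not tested.

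A wider list of 46 redox genes, chosen for their roles and without the 10, showed values in both directions and no call. Of the 46, 36 had a value on array 1, 26 on array 2, 9 on array 4 and 9 on none. Of the values on arrays 1, 2 and 4, 24, 18 and 6 were negative, where 63.8%, 66.6% and 80.8% of all values of these arrays were. On all arrays there were 8 genes, 4 with a positive and 4 with a negative fitted value, where 26.6% of the ORFs tested had a positive one, and their median was −0.0035. Limma called 0 of the 8 (0 at an unadjusted p under 0.05), against 0.277% of the ORFs (3.18% unadjusted). On arrays 1 and 2 there were 26 genes, of which 13 were negative on both and 4 positive on both, against 47.1% and 20.5% of the ORFs. Limma on these arrays called 0 of the 26, against 0.887% of the ORFs, and 5 had an unadjusted p under 0.05, against 13.5%.

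Of the other peroxidases, PRX1, the mitochondrial peroxiredoxin gene, had −1.22 and −0.38 on arrays 1 and 2, close to the values of GPX2. TSA2, the paralogue of TSA1, had −0.79 and 0.33, so its arrays disagreed in sign. DOT5, for a nuclear peroxiredoxin, had −0.39 and −0.18. HYR1 (GPX3), whose product senses peroxide and activates Yap1, had −0.85, 0.041 and −1.13 on arrays 1, 2 and 4, with a fitted value of −0.70. CCP1, the cytochrome c peroxidase gene, had −0.27, 0.065 and −0.64, with a fitted value of −0.28. HYR1 and CCP1 were therefore negative on arrays 1 and 4 and near 0 on array 2. Their fitted values were −0.40 and −0.10 without array 4, and 0.065 and 0.026 with the length trend removed. GPX1 and the mitochondrial thioredoxin gene TRX3 had no value on any array.

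Among the partners of these enzymes, SRX1, for the sulfiredoxin that repairs overoxidised peroxiredoxin, had −1.56 on array 1, its only value. TRR2, the mitochondrial thioredoxin reductase gene, had −0.0035 and −0.17 on arrays 1 and 2. CCS1, the copper chaperone gene for Sod1, had 0.19 and −0.074. GLR1, the glutathione reductase gene, had 0.59 and −0.44, which differ in sign. GSH1, for the first enzyme of glutathione synthesis, was positive on both, with 1.20 and 0.35. Of the regulators, SKN7 had 0.47 on array 1 alone, and YAP1, MSN2 and MSN4 had no value on any array, so the factors that induce TRX2, TSA1 and CTT1 were nearly unmeasured.

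The pentose phosphate pathway is a main source of the NADPH that thioredoxin reductase uses. It includes TKL1, SOL3, TAL1 and GND1 of the 8 genes of the list on all 3 arrays. The highest and the lowest fitted value of the 8 were among these. TKL1, the transketolase gene, had 1.16, 1.09 and 0.36 on arrays 1, 2 and 4, with a fitted value of 0.94 ± 0.73 (SE, 3 arrays; limma adjusted p = 0.868). SOL3, for a 6-phosphogluconolactonase, had −0.92, −0.36 and −1.74, with a fitted value of −0.98 ± 0.73 (SE, 3 arrays; limma adjusted p = 0.868). Without array 4 TKL1 had 1.12 and SOL3 −0.64, and with the length trend removed they had 1.17 and −0.46. These genes of the same pathway thus had opposite signs on each array, and neither was called. TAL1, the transaldolase gene, had 0.070, −0.14 and 1.24, and GND1, for 6-phosphogluconate dehydrogenase, had 0.67, 0.30 and −0.55, so both changed sign between arrays. Of the other genes on all arrays, OYE2, an NADPH oxidoreductase gene, had a fitted value of 0.36 and the glutathione transferase gene GTT1 one of −0.63. Without array 4 these were 0.086 and −0.38, and with the length trend removed 0.61 and −0.068. The 5 genes with an unadjusted p under 0.05 on arrays 1 and 2 were PRX1, MXR1 and SOL3, all negative, and GSH1 and TKL1, both positive. Among these 5, the positive genes are the long ones, with 2037 bp for GSH1 and 2043 bp for TKL1, and the negative ones are 786, 555 and 750 bp long. MXR1, for a methionine sulfoxide reductase, had −0.86 and −0.72, and it and this group of 5 were picked after their values were seen.

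**Figure D5:**
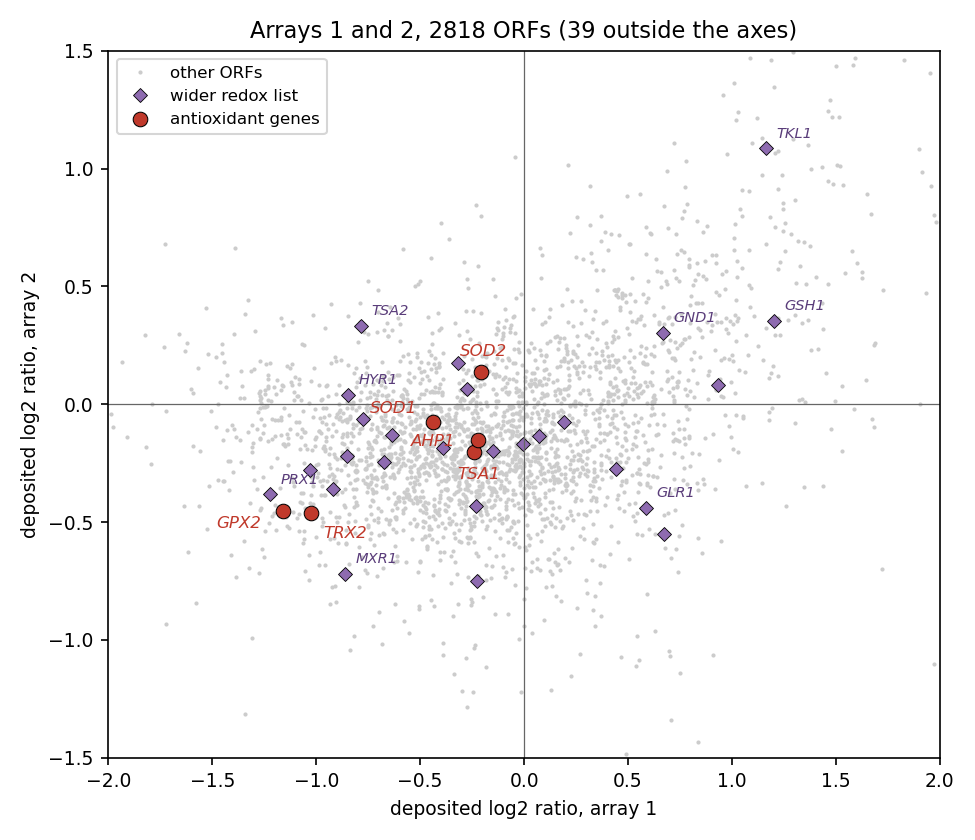
Deposited log2 ratio on array 2 (vertical axis) against array 1 (horizontal axis) for the 2818 ORFs with both values, with the 6 antioxidant genes as circles and 26 genes of the wider redox list as diamonds. GPX2 (−1.16 and −0.45) and TRX2 (−1.03 and −0.46) lie together at the lower left, near PRX1, while TKL1 and GSH1 lie at the upper right.

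Of 27 genes induced in the general environmental stress response, the programme to which CTT1 belongs, 7 had a value on all arrays, 3 with a positive and 4 with a negative fitted value, where 26.6% of the ORFs tested had a positive one. Their median was −0.36, against −0.36 for all ORFs tested, and limma called 0 of the 7 (0 at an unadjusted p under 0.05), against 0.277% of the ORFs (3.18% unadjusted).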

How the data were processed

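RNA of caspofungin-treated and untreated cells was hybridised on 3 two-colour arrays, per the labels. The authors deposited 1 log2 ratio per ORF and array. No source used here gives the scanner, image analysis, background correction, normalization, centring, direction or what left cells empty. That the values are log2 was read from them, since the ratios they stand for were multiples of 0.0001 (tolerance 0.01 of that step) in 100% of cases on each array. The precision is limited by the number of arrays. Of 6209 rows, 2 control rows without values were left out. ORFs were matched to RefSeq assembly R64 by locus tag (5654) or synonym (57), and 496 had no match. R64 was used for names and lengths only.

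limma 3.58.1 in R 4.3.3 (lmFit, eBayes) was fitted to the deposited log2 values over all ORFs on the 3 arrays. P-values were adjusted over all of them. The fit was tested on simulated data with independent noise of the same SD on each array, whereas the SDs of these arrays differ. Culture, dye and length effects were not simulated. It called 65 of 100 genes with a simulated log2 size of 2, 100 of 100 with 4 and 5 of 523 with 0. Percentiles were taken among the values of an array. The length trend was a loess with span 0.75 on log2 length. Alternatives changed the dye term, the culture of array 1, centring, spread, normalization, ORFs tested, direction of array 1, moderation, thresholds, and arrays left out. All 10 antioxidant genes are named; of the wider redox list, a fixed set of paralogues, partners and regulators was named with the genes measured on all arrays. The members and the lists (wider redox, environmental stress, glycolysis, mating type) were chosen with earlier results of these data known. The study's description gives 2 cultures but does not say which array came from which, so p-values may in part measure technical spread.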

Additional observations from a re-analysis of the deposited data

How the results depend on the processing

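No antioxidant gene was called under any of the 14 alternative fits or at an adjusted p under 0.10, and of 70 alternative fitted values of the 5 genes 27 had the other sign, most of them for TSA1 and AHP1, which lay near 0. The cause of these moves was not tested unless fewer arrays or genes show it. The 2 ORFs called among all tested became 12 with arrays 1 and 4 averaged and 11 without array 4 over the 723 ORFs. They became 0 (at an unadjusted p under 0.05, in brackets) without the dye term (40), with arrays 1 and 2 averaged (79), with median centring (29), with equal spread (61), with quantile normalization (228), with array 1 turned (4), over the 2840 ORFs on array 1 and 1 or more others (290) and with the length trend removed (22). With an array left out the count ran from 0 to 25, the 25 being on arrays 1 and 2, where 2818 ORFs were tested. The 0 antioxidant genes of at least 2-fold became 1, TRX2, with arrays 1 and 2 averaged, with quantile normalization and at 1.5-fold, and ran from 0 to 1 with an array left out. The median of the antioxidant genes, −0.038, became 0.35 with median centring and 0.57 with the length trend removed, and ran from −0.24 to 0.15 with an array left out.

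Fitted values with the other sign were these. Without the dye term, and likewise over ORFs on array 1 and at least 1 other, TSA1 had 0.048 and AHP1 0.023. With arrays 1 and 2 averaged TSA1 had 0.18, AHP1 0.13 and GND1 −0.032. With median centring TSA1 had 0.36, AHP1 0.35, SOD1 0.12 and CCP1 0.11, and with equal spread 0.16, 0.17, 0.044 and 0.13. With quantile normalization SOD2 had −0.090. With array 1 turned TSA1 had 0.22, AHP1 0.18, SOD1 0.17, TRX2 0.057, HYR1 0.15, TKL1 −0.22, GTT1 0.0066, OYE2 −0.089 and GND1 −0.40. With the length trend removed TSA1 had 0.64, AHP1 0.68, SOD1 0.52, TRX2 0.015, HYR1 0.065 and CCP1 0.026. With an array left out, TSA1 ran from −0.22 to 0.19, AHP1 from −0.19 to 0.15 and SOD2 from −0.036 to 0.22. TAL1 then ran from −0.033 to 0.65 and GND1 from −0.12 to 0.49. These fits had no dye term, so without array 1 dye and caspofungin cannot be told apart. Each array already pairs treated and untreated RNA of the same culture, so the fit tests that difference within cultures. The arrays could not be grouped further by culture, because the labels do not tie array 1 to a culture. The number of arrays and the empty cells limit what these data show: signal over background is not given, and 3 of the 10 genes have no value.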
